A study of Mus musculus with 70 samples.

Results

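The liver of male mice with a myeloid osteopontin knock-in was compared after a diet that induces non-alcoholic steatohepatitis (NASH) and after a control diet. There were 4 libraries from knock-in males on NASH diet and 4 from knock-in males on control diet. These 8 of the 70 libraries of the series were chosen by their labels alone, as total liver lysate of males whose genotype is given as OpnKI Mye, taken at 24 weeks of feeding (KI below). The series compares both diets in KI and WT mice of both sexes, in whole liver and in isolated liver macrophages. WT males (4 on NASH diet, 4 on control diet, genotype label Lyz2.Cre+/+, a line with Cre at the myeloid lysozyme 2 locus) and KI females (4 on NASH diet, 4 on control diet) were used for comparison. The labels give no ages and do not name the Cre or the promoter that drives the knock-in.

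Osteopontin, the product of Spp1, is a secreted phosphoprotein that binds CD44 and several integrins, and in fatty liver disease it is made by bile duct cells, stellate cells and macrophages that gather around lipid-laden hepatocytes. Diets that cause steatohepatitis load hepatocytes with triglyceride, engage the lipid sensor PPARA and its targets, repress sterol synthesis when they carry cholesterol, and in time add macrophage infiltration and collagen deposition. Whole-liver RNA mixes all of these cells, so fewer cells of a type and less RNA per cell cannot be told apart.

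Total counts ran over 19161896 to 29966174 in KI livers on NASH diet and 18743646 to 20749401 in KI livers on control diet, for 23839 genes, of which 12988 were deep enough to test. All 8 KI libraries had male-typical counts of Xist and Ddx3y. Among WT males on control diet, the libraries numbered 3 and 4 differed by less than the sampling noise (a chi-square that averaged 0.0671 over genes, where all 47 other replicate pairs in liver had 2.85 to 9.79). They were counted as 1 sample, so that group holds 3, and they carried 7035 and 8377 counts of Xist and 5 of Ddx3y each, against their male label. The WT calls, the list counts, the differences between genotypes and the KI values of WT-called genes were therefore also computed without them. Hepatocyte markers dominated every KI library (18 of 18 measured, summed to 114000 to 156000 CPM (counts scaled to library size by TMM) on NASH diet and 125000 to 151000 CPM on control diet). The markers of pancreatic acinar cells were at 0 in all 8 libraries for 8 of 10 genes, and Plin1 and Lep, which define adipocytes, were also at 0. The acinar list, through its other 2 genes, summed to 8.16 to 16.8 CPM on NASH diet and 18 to 23 CPM on control diet, without overlap. The 4 measured globin genes Hba-a1, Hba-a2, Hbb-bs and Hbb-bt were listed at 0 in all 8 libraries as well, so a 0 in this table does not show that a transcript was absent. The 7 measured adipocyte markers summed to 2100 to 3120 CPM on NASH diet and 1960 to 4910 CPM on control diet, nearly all of it Pck1, which hepatocytes also make. Cfd, the adipocyte protease adipsin, was at 9.03, 2.3, 0.406 and 0 CPM on NASH diet, against 0.0534, 0, 0.0505 and 0.112 CPM on control diet. NASH libraries 1, 2 and 3 were above every control for Cfd, and the part of adipocyte RNA in the lipid results was not tested.

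At an adjusted p of 0.05 (edgeR quasi-likelihood test, Benjamini-Hochberg), no gene passed in KI male liver, 0% of the 12988 tested. The smallest adjusted p was 0.11. At an unadjusted p under 0.05 there were 873 genes (6.72%), of which 526 were higher on NASH diet (4.05%) and 347 lower (2.67%). The 4 libraries on one diet all lay above the 4 on the other for 628 genes (4.84%), 345 higher on NASH diet (2.66%) and 283 lower (2.18%). DESeq2, run on the same 15 male libraries, called 44 genes (0.34%), 29 higher (0.224%) and 15 lower (0.116%), and 154 (1.26%) on the 8 KI libraries alone. The same edgeR test called 2781 genes in WT males (21.4%), 1493 higher (11.5%) and 1288 lower (9.92%), and 3395 without the merged control library. For 10193 genes (78.5%) the 95% interval of the KI diet effect lay inside 2-fold in either direction.

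Genes that the diet changed in WT males shifted the same way in the median of KI males, by a smaller amount. They were chosen by their WT values, which favours a larger WT median. The smaller KI median therefore does not by itself show a weaker effect. The WT calls came from a fit of all 15 male libraries, so the KI libraries entered its filter, scaling and estimate of spread, and leaving out single KI libraries gave 2535 to 2902 WT calls. The 1493 genes that rose in WT (median log2 fold change 1.28) had a median of 0.17 in KI, and 77.0% of them were positive against 53.0% of all genes. Their KI groups did not overlap, with NASH diet above, for 8.04%, against 2.66% of all genes. The 1288 genes that fell in WT (median -0.61) had a KI median of -0.08, 69.4% were negative against 47.0% of all genes, and 7.69% did not overlap with NASH diet below, against 2.18%. Without WT control libraries 3 and 4, the 1838 genes that rose in WT had a KI median of 0.16 (74.6% positive) and the 1557 that fell had -0.08 (71.0% negative). Across genes the WT and KI effects had a Pearson r of 0.33 and a Spearman rho of 0.29, a description only, since both sets of libraries share a table and a scaling. The 95% interval of the KI effect stayed inside 2-fold for 58.1% of the genes that rose and 86.1% of the genes that fell in WT. Of all genes 78.5% did so. In WT itself the effect exceeded 2-fold for only 978 of the 1493 and 307 of the 1288, so these shares do not show a smaller effect in KI.

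Spp1, the gene that the knock-in concerns, was read in every library. In liver it was at 38.5, 66.0, 22.5 and 25.7 CPM in the 4 KI libraries on NASH diet, against 29.8, 24.2, 14.5 and 24.0 CPM in the 4 on control diet. NASH libraries 1 and 2 were above every control, and libraries 3 and 4 were among the controls. The log2 fold change was 0.72 (95% interval -0.20 to 1.64, adjusted p = 0.86, edgeR), and an exact two-sided permutation test gave p = 0.229, where 4 against 4 can reach 0.0286. In WT males Spp1 rose by 3.38 on the log2 scale (283 ± 201 CPM on NASH diet and 27.1 ± 1.66 CPM on control diet, SD, adjusted p = 0.0012). The difference of the diet effects, -2.66, missed the threshold (adjusted p = 0.063). Macrophage CPM was scaled to the library total alone, without TMM. In the isolated macrophages of KI males, Spp1 was at 199, 154, 47.3, 59.9 and 43.7 CPM on NASH diet, against 7.12, 11.3, 7.73 and 10.7 CPM on control diet. Those groups did not overlap (exact two-sided permutation test, p = 0.0159). In WT male macrophages on NASH diet Spp1 was at 7.44, 48.3, 6.57, 55.9 and 5.72 CPM. On control diet it was at 0.358, 0.516, 0.268 and 0.315 CPM there, also without overlap. The counts give 1 level per library and do not show which allele the reads came from.

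Of 11 genes for osteopontin and its receptors, 10 were deep enough to test. Their median diet effect in KI was 0.15 on the log2 scale, against 0.58 in WT males, where 6 rose (11.5% of all genes). Cd44, the hyaluronan receptor that also binds osteopontin, was at 11.9, 18, 14.4 and 22.7 CPM on NASH diet, against 13.4, 12.3, 11.6 and 12.9 CPM on control diet (log2 0.41, unadjusted p = 0.045). Its lowest NASH library lay among the controls. The integrin subunits Itga9 and Itgb5 had log2 fold changes of 0.28 and 0.19.

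The 12 genes with the smallest p in each direction were also all called by DESeq2, and 21 of these 24 did not overlap between the diets. Those values chose them, so they are given as a description. Rnf145, a sterol-sensing ubiquitin ligase of the endoplasmic reticulum (ER), had the smallest p: 65.4, 47.5, 50.9 and 55.7 CPM on NASH diet, against 25.4, 31.5, 34.9 and 22.2 CPM on control diet (log2 0.95, 95% interval 0.63 to 1.26, adjusted p = 0.11). In WT males it averaged 56.3 ± 6.08 CPM on NASH diet and 52.7 ± 7.71 CPM on control diet, so both WT groups stood at the level of KI on NASH diet, and the difference of the diet effects was 0.85 (adjusted p = 0.073). Phospho1, a phosphatase of phosphocholine and phosphoethanolamine, was at 12.7, 11.2, 15.2 and 17.1 CPM on NASH diet, against 3.90, 7.25, 6.92 and 4.37 CPM on control diet (log2 1.32, 95% interval 0.87 to 1.77, adjusted p = 0.11). It rose in WT males too, by 2.55. Tmem86a, a lysoplasmalogenase, was at 48.8, 35.8, 29.3 and 21.8 CPM on NASH diet, against 15.2, 14.7, 15.8 and 11.3 CPM on control diet (log2 1.25, adjusted p = 0.24). Its lowest NASH library was above its highest control library.

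Large shifts among the higher genes were carried unevenly by the NASH libraries. Ephb2, an ephrin receptor tyrosine kinase, was at 16.0, 3.56, 2.33 and 0.928 CPM on NASH diet, against 0.374, 0.468, 0.657 and 0.504 CPM on control diet (log2 3.48). The groups did not touch, but library 1 alone held most of the signal, and without it the fold change was 2.16. Cntnap1, a contactin-associated membrane protein, was also uneven with 26.1, 46.7, 9.17 and 3.29 CPM on NASH diet, against 1.87, 2.43, 4.70 and 2.86 CPM on control diet, and overlapped. More even shifts were seen for Clstn3 (log2 1.70), Gnai1 (1.47), an inhibitory G protein subunit, Fam25c (1.09), Ammecr1 (1.01), Klf16 (0.96) and Slc22a5 (0.75), the plasma membrane carnitine transporter, all 6 with every NASH library above every control library. Clstn3 and Gnai1 also rose in WT males, by 3.31 and 2.51, while the other 4 of these were not called there (log2 0.16 to 0.38).

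On the lower side, Apom, which carries sphingosine 1-phosphate on lipoproteins, was at 66.7, 77.7, 87.3 and 88.5 CPM on NASH diet, against 145, 104, 144 and 128 CPM on control diet (log2 -0.70, 95% interval -0.97 to -0.44, adjusted p = 0.22). The diets did not overlap. It fell further in WT males, by 1.50, and that difference of 0.80 was called (adjusted p = 0.047), but in only 2 of 15 fits that left out 1 library (adjusted p 0.032 to 0.14). Slc30a10, a manganese exporter, was at 29.2, 26.2, 27.7 and 33.3 CPM on NASH diet, against 42.0, 53.9, 42.5 and 47.4 CPM on control diet, a log2 fold change of -0.67 that was -0.68 in WT. Slc2a4, the insulin-responsive glucose transporter, was at 2.28, 0.471, 4.60 and 1.39 CPM on NASH diet, against 7.48, 5.75, 5.96 and 13.4 CPM on control diet (log2 -1.84). Rarres2, which encodes chemerin, had -0.62, and Pdhb, a pyruvate dehydrogenase subunit, -0.50. Both were separate between diets. The others were Gmds (-1.77), Bach2 (-1.54), Stip1 (-0.45), Wbp1 (-0.38) and Tra2a (-0.37), of which Bach2 overlapped. Derl3 and Pdia6, also among the 12, are described with the ER genes.

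Genes that coat and fill lipid droplets were the ones most often higher on NASH diet among the lists read here. The median log2 fold change was 0.44, against 0.01 over all genes. Of 20 listed, 19 were tested, 8 were higher at an unadjusted p under 0.05 and 5 did not overlap with NASH diet above. Those shares were 4.05% and 2.66% over all genes. Leaving out single KI libraries gave 7 to 9 at that p. Plin2, the main droplet coat protein of hepatocytes, was at 649, 496, 395 and 391 CPM on NASH diet, against 303, 269, 352 and 238 CPM on control diet (log2 0.73, 95% interval 0.36 to 1.10). Fitm2, which partitions triglyceride into droplets, was at 44.5, 48.4, 36.5 and 32.3 CPM on NASH diet, against 27.7, 27.4, 27.4 and 28.5 CPM on control diet (log2 0.54), and its homologue Fitm1 had a log2 fold change of 0.77. In all 3 the groups were apart. Pnpla2, the lipase that starts droplet lipolysis, was at 131, 99.4, 103 and 96.1 CPM on NASH diet, against 69.6, 84.8, 78.2 and 82.0 CPM on control diet (log2 0.45), while in WT males it did not pass the test (log2 0.08).

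**Figure D1:**
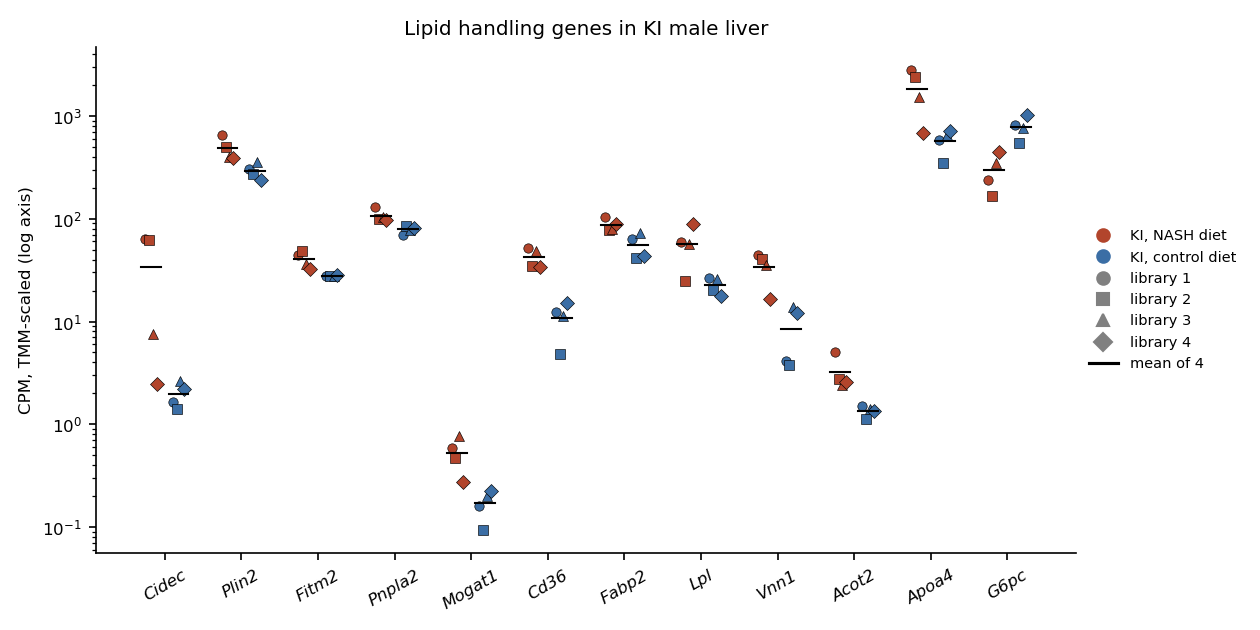
Levels of 12 lipid handling genes in each KI male liver library (CPM on a log axis; red, NASH diet; blue, control diet; marker shape, library number; bar, mean of 4). Plin2, Fitm2, Pnpla2, Mogat1, Cd36, Fabp2, Vnn1 and Acot2 lie apart between the diets with NASH above, G6pc with NASH below, and Cidec spans 2.46 to 63.3 CPM on NASH diet.

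Cidec, which fuses droplets into larger ones, was at 63.3, 62.4, 7.51 and 2.46 CPM on NASH diet, against 1.66, 1.40, 2.63 and 2.19 CPM on control diet (log2 4.10, 95% interval 2.42 to 5.79, adjusted p = 0.26). NASH libraries 1 and 2 were far above every control and library 4 was within their range. Without NASH library 4 it was the 1 gene called (adjusted p = 0.023). Cidea, its relative, was at 11.1, 10.2, 0.507 and 0.418 CPM on NASH diet, against 0.374, 0, 0.960 and 0.280 CPM on control diet, with libraries 1 and 2 above every control and 3 and 4 within their range. In WT males Cidec rose to 207 ± 44.8 CPM on NASH diet, against 3.11 ± 1.11 CPM on control diet, and the KI minus WT difference of -1.97 did not pass (adjusted p = 0.33). Mogat1, an acyltransferase that makes diacylglycerol, was at 0.593, 0.471, 0.778 and 0.278 CPM on NASH diet, against 0.160, 0.0935, 0.202 and 0.224 CPM on control diet (log2 1.66). In WT males it rose by 5.30. Hsd17b13, a droplet dehydrogenase of hepatocytes, went against the list, with 301, 247, 283 and 280 CPM on NASH diet, against 332, 304, 334 and 357 CPM on control diet (log2 -0.26, unadjusted p = 0.17), while it rose by 0.93 in WT. For Hsd17b13 and Fitm1 the KI minus WT differences of -1.18 and -2.03 were called (adjusted p = 0.047 for each), each in only 2 of 15 fits that left out 1 library (adjusted p up to 0.11 and 0.13).

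Fatty acid uptake genes followed, with a median of 0.28. At an unadjusted p under 0.05, 5 of 15 were higher, 2 of them apart, against 4.05% and 2.66% of all genes. Cd36, a fatty acid translocase, was at 52.4, 34.8, 48.0 and 34.1 CPM on NASH diet, against 12.3, 4.82, 11.3 and 15.1 CPM on control diet (log2 1.96, 95% interval 0.80 to 3.12, unadjusted p = 0.0027). Every NASH library was above the highest control. Fabp2, a cytosolic fatty acid carrier, had a log2 fold change of 0.65 and also did not overlap. Fabp4, the adipocyte and macrophage carrier, was at 9.08, 16.7, 6.73 and 3.99 CPM on NASH diet, against 4.01, 2.85, 3.54 and 4.60 CPM on control diet (log2 1.28). Lpl, lipoprotein lipase, was at 58.7, 24.8, 56.2 and 88.1 CPM on NASH diet, against 26.3, 20.2, 26.0 and 17.7 CPM on control diet (log2 1.34). Both of these overlapped by a single NASH library.

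PPARA targets had a median of 0.55, with 6 of 20 higher at an unadjusted p under 0.05 and 5 apart, against 4.05% and 2.66% of all genes. The first count ran from 2 to 7 when single KI libraries were left out. In WT males the median was 1.12 and 9 rose (14 without the paired control libraries 3 and 4), against 11.5% of all genes. Vnn1, a pantetheinase, was at 44.6, 40.6, 35.2 and 16.5 CPM on NASH diet, against 4.17, 3.74, 13.8 and 12.1 CPM on control diet (log2 2.02). Acot2, a mitochondrial acyl-CoA thioesterase, was at 5.11, 2.78, 2.40 and 2.60 CPM on NASH diet, against 1.50, 1.12, 1.41 and 1.35 CPM on control diet (log2 1.26). Both sets lay apart, as did Pex11a, a peroxisome proliferation factor (log2 0.61), whereas Acaa1b, a peroxisomal thiolase, overlapped (0.73). Mitochondrial fatty acid oxidation genes moved less, with a median of 0.22 and 4 of 18 higher, against 4.05% of all genes. That count was 2 to 9 without single libraries. Among them Eci2, an enoyl-CoA isomerase, was at 188, 180, 184 and 232 CPM on NASH diet, against 154, 132, 174 and 126 CPM on control diet (log2 0.42), and Cpt1a, the gate of mitochondrial fatty acid entry, had 0.61 with overlap. Neither was called in WT.

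Apoa4, a lipoprotein gene that follows hepatic triglyceride load in mice, was at 2790, 2380, 1510 and 685 CPM on NASH diet, against 576, 350, 652 and 717 CPM on control diet (log2 1.68, unadjusted p = 0.00088). As with Cidec, libraries 1 to 3 were above all controls and library 4 was among them. G6pc, the glucose-6-phosphatase of gluconeogenesis, was at 236, 167, 346 and 448 CPM on NASH diet, against 812, 545, 755 and 1010 CPM on control diet (log2 -1.38, unadjusted p = 0.0052). The G6pc groups did not overlap, and G6pc fell by 2.39 in WT males.

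Chaperones and degradation factors of the ER were lower on NASH diet in KI males. Of 18 unfolded protein response genes, 10 were lower at an unadjusted p under 0.05 (5 to 11 without single KI libraries) and none was higher. NASH diet lay below without overlap for 3, and the median was -0.51. Of all genes, 2.67% were lower at that p and 2.18% lay below without overlap. Derl3, a component of ER-associated degradation, was at 2.96, 5.71, 6.83 and 3.34 CPM on NASH diet, against 16.7, 24.3, 59.8 and 46.2 CPM on control diet (log2 -2.96, 95% interval -4.12 to -1.79, adjusted p = 0.24). The lowest control was above the highest NASH library. In WT males Derl3 averaged 1.94 ± 1.79 CPM on NASH diet and 2.50 ± 1.14 CPM on control diet, so the KI control mean of 36.8 CPM was the highest of the 4 male groups, and the difference of the diet effects was -2.60 (adjusted p = 0.13). Pdia6, a protein disulfide isomerase, was at 282, 374, 257 and 251 CPM on NASH diet, against 429, 434, 549 and 480 CPM on control diet (log2 -0.70). Calr, the lectin chaperone calreticulin, was at 1090, 1490, 1100 and 1000 CPM on NASH diet, against 1520, 1530, 1880 and 1610 CPM on control diet (log2 -0.48). Both were separate between diets, with NASH library 2 the highest of its group.

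Hsp90b1, the ER form of HSP90, was at 1070, 1600, 1020 and 866 CPM on NASH diet, against 1450, 1560, 2720 and 1900 CPM on control diet (log2 -0.74). Hspa5, the master chaperone BiP, was at 835, 1120, 826 and 677 CPM on NASH diet, against 929, 1320, 2050 and 988 CPM on control diet (log2 -0.61). Control library 3 was the highest of the 8 in each, and without it the Hspa5 effect was -0.32. Dnajc3, an HSPA5 cochaperone, had -0.58, Creld2 -0.91, Hyou1, an ER chaperone of the HSP70 family, -0.62 and Sdf2l1 -0.86, all 4 with overlap. The list medians were -0.50 in WT males and -0.79 in KI females.

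Promoters of these genes are shown because several carry the ER stress response element, the sequence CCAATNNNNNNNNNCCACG, to which the factors NF-Y and ATF6 are known to bind. Windows of 250 bases before to 50 after the annotated start (RefSeq, GRCm38.p6) were searched on both strands for this motif, chosen after the values were seen. It was found in 7 of the 16 listed genes that have a window (43.8%), in 37 of 27025 genes with a window (0.137%) and in 39 of 32851 windows (0.119%). All 7 were among the 9 with a window that were lower at an unadjusted p under 0.05, and it was in 0 of the 7 others. This split rests on the p-values seen before the motif was chosen, so it is a description only. The number of list members lower at that p was 5 to 11 when single KI libraries were left out. The elements follow, read 5′ to 3′ on the strand that spells CCAAT first, with CCAAT and CCACG in capitals.
Derl3 (chr10:75893242-75893260): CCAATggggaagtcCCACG
Pdia6 (chr12:17266491-17266509): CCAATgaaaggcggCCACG
Calr (chr8:84847075-84847093): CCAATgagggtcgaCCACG
Hsp90b1 (chr10:86705638-86705656): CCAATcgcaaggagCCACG
Hsp90b1 (chr10:86705533-86705551): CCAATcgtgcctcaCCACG
Hspa5 (chr2:34772025-34772043): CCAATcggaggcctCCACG
Dnajc3 (chr14:118937827-118937845): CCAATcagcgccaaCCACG
Creld2 (chr15:88819520-88819538): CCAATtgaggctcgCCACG
In the Derl3, Calr and Creld2 windows and for the second Hsp90b1 element this is the strand opposite to the gene. The elements lay 65 to 212 bases before the start. A match is a description of letters, and binding was not measured.

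The whole window of Derl3, the ER gene with the largest shift, reads as follows in the direction of the gene, where the capitals CGTGG and ATTGG mark the element as it appears from the opposite strand.
Derl3 (chr10:75893148-75893447): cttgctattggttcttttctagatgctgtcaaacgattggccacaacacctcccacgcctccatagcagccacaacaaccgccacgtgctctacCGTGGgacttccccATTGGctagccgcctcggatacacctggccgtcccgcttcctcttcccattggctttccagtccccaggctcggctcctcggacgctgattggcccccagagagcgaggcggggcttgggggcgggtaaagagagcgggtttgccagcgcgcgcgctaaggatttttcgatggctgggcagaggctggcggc

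**Figure D2:**
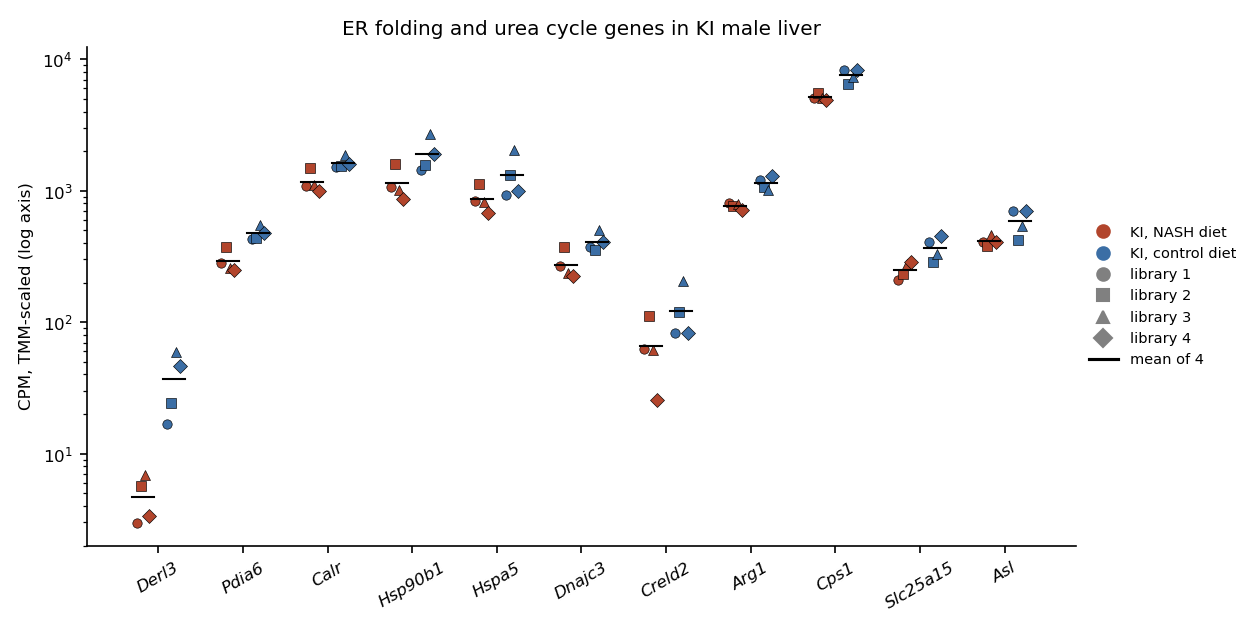
Levels of 7 ER genes and 4 urea cycle genes in each KI male liver library (CPM on a log axis; red, NASH diet; blue, control diet; marker shape, library number; bar, mean of 4). Derl3, Pdia6, Calr, Arg1, Cps1 and Slc25a15 lie apart between the diets with NASH below, and control library 3 is the highest of the 8 for Derl3, Hsp90b1, Hspa5, Dnajc3 and Creld2.

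Enzymes of the urea cycle, the hepatocyte pathway that disposes of ammonia, were all below control in their fitted effect, with a median of -0.52. Of 10 listed, 9 of 9 tested were negative, against 47.0% of all genes. At an unadjusted p under 0.05, 4 were lower (2 to 4 when single KI libraries were left out), against 2.67% of all genes. The groups did not overlap for 3, against 2.18% of all genes with NASH diet below. Arg1, which releases urea from arginine, was at 804, 772, 790 and 711 CPM on NASH diet, against 1210, 1060, 1020 and 1290 CPM on control diet (log2 -0.57, 95% interval -0.90 to -0.25, unadjusted p = 0.0019). Cps1, the entry enzyme, was at 5050, 5560, 5070 and 4910 CPM on NASH diet, against 8290, 6500, 7340 and 8340 CPM on control diet (log2 -0.57). Slc25a15, the mitochondrial ornithine carrier, was at 210, 232, 277 and 286 CPM on NASH diet, against 404, 289, 328 and 454 CPM on control diet (log2 -0.55). In these 3 genes every NASH library was below every control. Asl, argininosuccinate lyase, had -0.52 with overlap. The pathway's median was -0.91 in WT males, where 6 fell (9.92% of all genes), and -0.83 in KI females, where 5 fell (4.8% of all genes). The whole hepatocyte marker list, which also holds Cps1, had a median of -0.10 and summed levels that overlapped. NASH diet lay below without overlap for 3 of its 18 genes, against 2.18% of all genes. The periportal hepatocyte list, which also holds Asl, had a median of -0.32. Of its 11 tested genes 9 were negative and 2 lay below without overlap, against 47.0% and 2.18% of all genes.

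Collagen and other matrix genes were where the KI diet effect was small beside that of WT males. Among 30 tested, 25 rose and 1 fell in WT (median 1.83), against 11.5% and 9.92% of all genes. In KI the median was 0.36 and 0 were called. In sign, 27 of the 30 were positive in KI and 3 negative, against 53.0% of all genes positive. At an unadjusted p under 0.05, 1 was higher (0 to 4 when single KI libraries were left out), near the 4.05% of all genes. The KI interval lay inside 2-fold for 12 of 30, against 78.5% of all genes. Col1a1, the main fibrillar collagen chain, was at 32.2, 14.7, 13.1 and 6.82 CPM on NASH diet, against 9.67, 9.07, 5.41 and 14.4 CPM on control diet (log2 0.79, 95% interval -0.23 to 1.82). Col3a1 was at 71.0, 29.0, 41.0 and 25.6 CPM on NASH diet, against 24.2, 27.9, 20.3 and 39.1 CPM on control diet (log2 0.58, 95% interval -0.26 to 1.42). In each of these collagens the diets overlapped and NASH library 1 was the highest of the 8. In WT males Col3a1 averaged 298 ± 179 CPM on NASH diet and 30.4 ± 9.44 CPM on control diet. The KI minus WT difference was -2.71 for Col3a1 (adjusted p = 0.044, and 0.026 to 0.13 when each of 15 libraries was left out, called in 4) and -2.86 for Col1a1 (adjusted p = 0.073). Across the list 1 difference was called, and 5 without WT control libraries 3 and 4. Vcan, a proteoglycan also made by monocytes, was the 1 member apart, at 0.912, 0.576, 0.710 and 0.650 CPM on NASH diet, against 0.481, 0.281, 0.354 and 0.0560 CPM on control diet (log2 1.26).

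Markers of lipid-associated macrophages, the Trem2-positive cells that take up lipid in fatty liver, showed the same contrast between genotypes. Of 18 genes, 14 rose and 1 fell in WT males (median 2.57), against 11.5% and 9.92% of all genes. In KI the median was 0.39, and 17 of the 18 were positive, against 53.0% of all genes. There 5 were higher at an unadjusted p under 0.05 and 3 lay apart, against 4.05% and 2.66% of all genes. Among the 5 were Plin2, Cd36 and Lpl, given above among the lipid genes. The KI minus WT difference was called for 8 of the 18, 7 negative and 1 positive (10 and 1 without WT control libraries 3 and 4). The positive one was Fabp5, which fell in WT males and is given below with the genes more positive in KI. In all, 153 differences were called (1.18% of genes, with 0.585% more positive and 0.593% more negative in KI). That count ran from 26 to 559 when single libraries were left out. Trem2, the lipid receptor that names these cells, was at 1.87, 0.419, 1.22 and 1.90 CPM on NASH diet, against 0.961, 0.655, 0.556 and 0.616 CPM on control diet (log2 0.96, unadjusted p = 0.036). Anxa5, an annexin that binds phosphatidylserine, was at 92.5, 80.0, 79.9 and 73.4 CPM on NASH diet, against 60.1, 65.1, 56.1 and 63.8 CPM on control diet (log2 0.41, 95% interval 0.18 to 0.64). Its groups were apart but the size was well under that of WT males, 376 ± 51.2 CPM on NASH diet and 81.6 ± 6.26 CPM on control diet (difference -1.79, adjusted p = 0.00022). Gpnmb, a lysosomal glycoprotein, was at 0.912, 0.733, 0.135 and 0.371 CPM on NASH diet, against 1.55, 0.281, 0.101 and 3.36 CPM on control diet (log2 -1.31, 95% interval -3.05 to 0.42). In WT males it averaged 33.1 ± 17.3 CPM on NASH diet and 0.324 ± 0.106 CPM on control diet (difference -7.95, adjusted p = 0.012).

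Lgals3, galectin 3, was at 6.16, 5.66, 6.26 and 8.54 CPM on NASH diet, against 8.28, 5.71, 5.66 and 4.09 CPM on control diet (log2 0.16, 95% interval -0.40 to 0.73), and Mmp12, macrophage elastase, was at 2.51, 1.05, 0.271 and 0.789 CPM on NASH diet, against 1.07, 0.561, 1.11 and 0.729 CPM on control diet. For both the libraries were interleaved. The differences from WT males were -2.55 and -5.30 (adjusted p = 0.012 for each). S100a11, Uap1l1, Haus8 and Gm19619 also had more negative effects in KI (differences of -2.63, -2.42, -2.38 and -2.21, adjusted p = 0.012), and Gpx4, the lipid hydroperoxide reductase, had one of -1.02 (adjusted p = 0.014). Gpx4 was still at 187, 172, 184 and 187 CPM on NASH diet, against 150, 150, 170 and 137 CPM on control diet, which do not overlap (log2 0.27). Uap1l1 kept a log2 fold change of 0.89 (95% interval 0.36 to 1.42). These 7 differences, with Anxa5 and Gpnmb, were called in all 15 fits that left out 1 library, with adjusted p up to 0.049. Apart from Arntl, given below, every difference from WT males named here as called was also called without the merged WT control library.

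**Figure D3:**
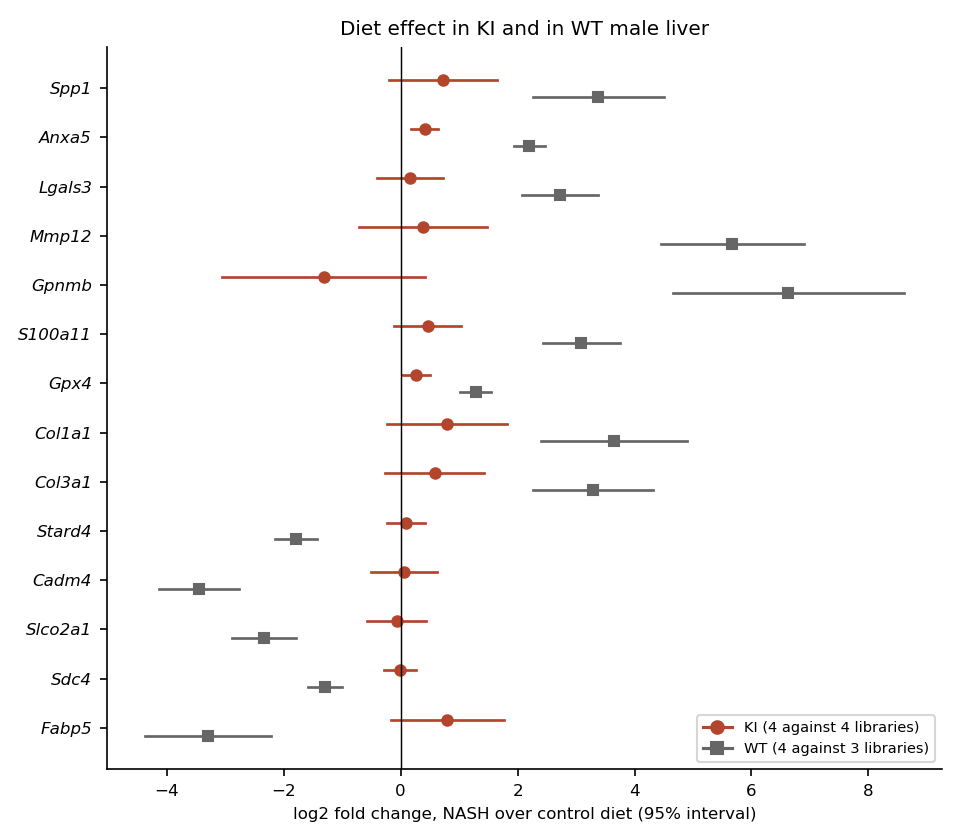
Log2 fold change of NASH over control diet with its 95% interval for 14 genes in male liver (red circles, KI, 4 against 4 libraries; grey squares, WT, 4 against 3). The KI interval spans 0 for all but Anxa5 and Gpx4, with estimates from -1.31 for Gpnmb to 0.79 for Col1a1 and Fabp5, while WT values run from -3.45 for Cadm4 to 6.63 for Gpnmb.

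Genes of cholesterol synthesis and uptake had a median diet effect of 0.03 in KI males. Of 24, none was apart and 1 was higher at an unadjusted p under 0.05, against 4.05% of all genes. The interval lay inside 2-fold for 19 of 24, near the 78.5% of all genes. In WT males 17 fell (13 without control libraries 3 and 4), against 9.92% of all genes, with a median of -1.17. In KI females 18 fell, against 4.8% of all genes, with a median of -1.45. The KI minus WT difference was called for 2 of the 24, both more positive in KI (5 without WT control libraries 3 and 4). Stard4, a sterol carrier, was at 97.1, 70.7, 90.7 and 72.2 CPM on NASH diet, against 70.9, 90.0, 68.6 and 81.5 CPM on control diet (log2 0.09, 95% interval -0.24 to 0.42), and its difference from WT males of 1.88 (adjusted p = 0.0034) was called without each library in turn.

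Of the 76 differences called as more positive in KI, all were genes that fell in WT males. That follows largely from the contrast, which subtracts the WT effect in a fit where no KI effect was called. An unadjusted p of 0.05 or above for the KI diet effect was seen for 62 of them. The genes named next were of that kind, a fall in WT males beside a KI interval that spanned 0, while Apom, given above, was lower in KI too. Cadm4, a cell adhesion molecule, was at 16.6, 30.4, 23.5 and 23.5 CPM on NASH diet, against 25.4, 23.3, 19.3 and 22.4 CPM on control diet (95% interval of the log2 fold change -0.51 to 0.62, difference 3.50, adjusted p = 0.0033). Slco2a1, a prostaglandin transporter, had an interval of -0.58 to 0.43 and a difference of 2.27. Hs3st3b1, Sdc4, a heparan sulfate proteoglycan, Ttc39b, Scap, the escort protein of SREBP, and Dlgap1 had differences of 0.99, 1.28, 1.22, 1.36 and 3.87, all with an adjusted p of 0.012 or below. Fabp5, a fatty acid carrier, was at 60.3, 92.7, 127 and 31.6 CPM on NASH diet, against 22.3, 54.1, 37.1 and 66.4 CPM on control diet (log2 0.79), where WT males fell by 3.30 (difference 4.09, adjusted p = 0.016). These 8 were called in every fit that left out 1 library.

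Fatty acid synthesis was mixed in KI males. Of 19 genes, 2 were higher and 3 lower at an unadjusted p under 0.05, against 4.05% and 2.67% of all genes, with a median of -0.13. Elovl5, an elongase of polyunsaturated fatty acids, was at 965, 608, 772 and 425 CPM on NASH diet, against 298, 397, 306 and 547 CPM on control diet (log2 0.84), and Fads2, the delta-6 desaturase, had 0.66. Thrsp, a lipogenic regulator, was at 740, 419, 602 and 266 CPM on NASH diet, against 1300, 729, 841 and 1200 CPM on control diet (log2 -1.01). Fasn, fatty acid synthase, had -0.29 (95% interval -1.04 to 0.46) and Scd1, the stearoyl-CoA desaturase, 0.50 (-0.62 to 1.62). All 5 overlapped.

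**Figure D4:**
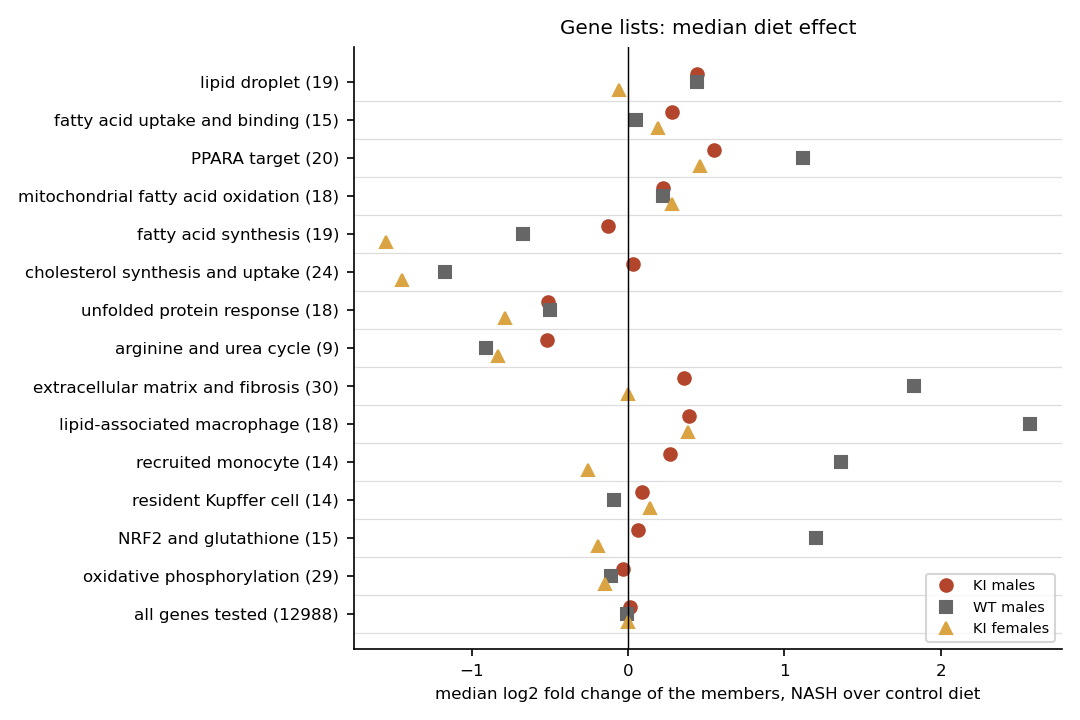
Median log2 fold change of NASH over control diet of the tested members of 14 gene lists and of all genes (red circles, KI males; grey squares, WT males; yellow triangles, KI females; the number of genes tested in males is in brackets, and up to 3 members of a list were too low to test in females). KI males lie near WT males for the lipid droplet and unfolded protein response lists, and at 0.36 and 0.03 for matrix and cholesterol genes, where WT males are at 1.83 and -1.17.

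For the lists of other cell markers, the shares at an unadjusted p under 0.05 over all genes were 4.05% higher and 2.67% lower. Resident Kupffer cell genes had 0 of 14 at that p and summed levels of 917 to 1420 CPM on NASH diet and 1060 to 1280 CPM on control diet. Of 14 recruited monocyte genes 2 were higher, Vcan and Itgam, an integrin of monocytes and neutrophils, at 4.06, 5.34, 3.79 and 4.45 CPM on NASH diet, against 2.56, 3.32, 2.32 and 2.24 CPM on control diet (log2 0.75). The Itgam groups were apart. In sign, 13 of the 14 recruited monocyte genes were positive, against 53.0% of all genes. MHC class II and dendritic cell genes had a median of -0.18, against 1.65 in WT males, where 9 of 18 rose (11.5% of all genes). The KI minus WT difference was called for 4 of the 18, all negative. H2-Aa, a class II chain, was at 38.4, 14.2, 12 and 31.8 CPM on NASH diet, against 46.6, 42.8, 29.3 and 24.2 CPM on control diet (log2 -0.57, difference from WT males -2.78, adjusted p = 0.037, called in 7 of 15 fits without 1 library, up to 0.098). Cd209a, a lectin of monocyte-derived dendritic cells, was below all controls at 0.0912, 0.0524, 0.0338 and 0.186 CPM on NASH diet, against 0.320, 0.468, 0.202 and 0.392 CPM on control diet. Stellate cell genes had 0 of 13 at an unadjusted p under 0.05, and all 14 sinusoidal endothelial intervals lay inside 2-fold, against 78.5% of all genes. B and plasma cell genes were negative for 6 of 6 tested, 2 at an unadjusted p under 0.05 (0 to 4 when single KI libraries were left out) and 2 without overlap, with sums of 5.24 to 6.91 CPM on NASH diet and 7.29 to 12.4 CPM on control diet. T and NK cell genes were negative for 10 of 11 tested (median -0.65), 1 at an unadjusted p under 0.05 and none apart, with sums of 9.38 to 14.7 CPM on NASH diet and 8.84 to 26.8 CPM on control diet. For both lists the shares over all genes were 47.0% negative and 2.18% apart with NASH diet below. Of 11 cholangiocyte genes tested, 8 were positive and 3 negative, against 53.0% of all genes positive. At an unadjusted p under 0.05, 2 were higher (0 to 3 when single KI libraries were left out). The diets lay apart with NASH above for 1, against 2.66% of all genes. Their median was 0.65, against 2.22 in WT males, where 6 rose. Krt8 and Krt18, keratins of bile duct cells and stressed hepatocytes, had log2 fold changes of 0.98 and 0.65, with Krt8 at 403, 754, 226 and 211 CPM on NASH diet, against 242, 168, 203 and 195 CPM on control diet. The part of these cell markers in the lipid and ER results was not tested.

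Among the remaining pathways, 0 of 29 oxidative phosphorylation genes passed an unadjusted p of 0.05, against 6.72% of all genes. All 29 intervals lay inside 2-fold, against 78.5% of all genes. The interferon response had 0 of 18 and the xenobiotic P450 list 0 of 18. Of 17 circadian clock genes, 3 were lower at that p (1 to 3 when single KI libraries were left out), against 2.67% of all genes. Arntl, on that list, averaged 2.14 ± 0.496 CPM on NASH diet and 5.1 ± 1.96 CPM on control diet, with overlap (log2 -1.24, unadjusted p = 0.0053, edgeR). It rose by 1.66 in WT males (difference -2.9, adjusted p = 0.04, edgeR). Fits that left out 1 library are not given for Arntl. Inflammatory cytokine and NF-kB genes had a median of -0.04, against 1.07 in WT males, and cell cycle genes 0.39, against 1.82, although Rrm2, a ribonucleotide reductase subunit, was lower (-0.81). The NRF2 list had a median of 0.06, against 1.20 in WT males, where 10 of 15 rose, against 11.5% of all genes. The KI minus WT difference was called for 2 of the 15, both negative. Srxn1, an NRF2 target, was at 51.5, 214, 42.5 and 40.0 CPM on NASH diet, against 35.0, 41.9, 38.1 and 34.6 CPM on control diet, so that 1 library made most of its log2 fold change of 1.22. Without that library it was 0.25. Abcc3, a basolateral bile salt exporter, was at 277, 183, 181 and 169 CPM on NASH diet, against 123, 79.2, 156 and 99.3 CPM on control diet (log2 0.82), and Lipa, the lysosomal acid lipase, had 0.46. Neither overlapped.

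KI females on the same diets gave 1220 called genes of 13315 (9.16%), 4.36% higher and 4.8% lower on NASH diet, and the diet effects of the sexes differed for 89 of 13415 genes (0.663%), more positive in males for 0.432% and more negative for 0.231%. Plin4, a droplet coat protein, was at 24.8, 30.8, 11.2 and 9.10 CPM on NASH diet in KI males, against 6.78, 3.23, 6.17 and 21.7 CPM on control diet. In KI females it was at 12, 12.7, 11.9 and 5.70 CPM on NASH diet, against 135, 43.3, 126 and 183 CPM on control diet, a fall with no overlap (log2 -3.52, adjusted p = 0.0038). The male minus female difference was 4.51 (adjusted p = 0.010). Plin5, the mitochondria-linked droplet protein, differed by 2.16 (adjusted p = 0.010), as it averaged 38.4 CPM on NASH diet and 173 CPM on control diet in females, and 42.6 CPM on NASH diet and 42.5 CPM on control diet in males. Both differences were called in all 31 fits that left out 1 library.

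Cidec, Apoa4 and Pmvk, a mevalonate pathway kinase, also differed between the sexes, by 5.27, 2.20 and 2.17 (adjusted p = 0.029, 0.046 and 0.041), but were called in only 21, 13 and 19 of those 31 fits, with adjusted p up to 0.065, 0.11 and 0.092. With a replicate block none of the 3 passed. Cidec in KI females was at 3.32, 4.92, 4.93 and 3.07 CPM on NASH diet, against 19.2, 2.36, 6.61 and 9.36 CPM on control diet, so no female library on NASH diet reached the level of male NASH libraries 1 to 3. Phospho1, second by p in KI males, was at 3.27, 6.73, 4.52 and 4.52 CPM on NASH diet in KI females, against 3.12, 3.66, 3.48 and 4.62 CPM on control diet. Plin2, Cd36 and Arg1 kept their direction in females without overlap, and Derl3 was lower in its fitted effect (log2 -2.20, adjusted p = 0.12), with 4.23, 4.65, 1.14 and 2.20 CPM on NASH diet, against 1.78, 21.5, 32.2 and 0.400 CPM on control diet.

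**Figure D5:**
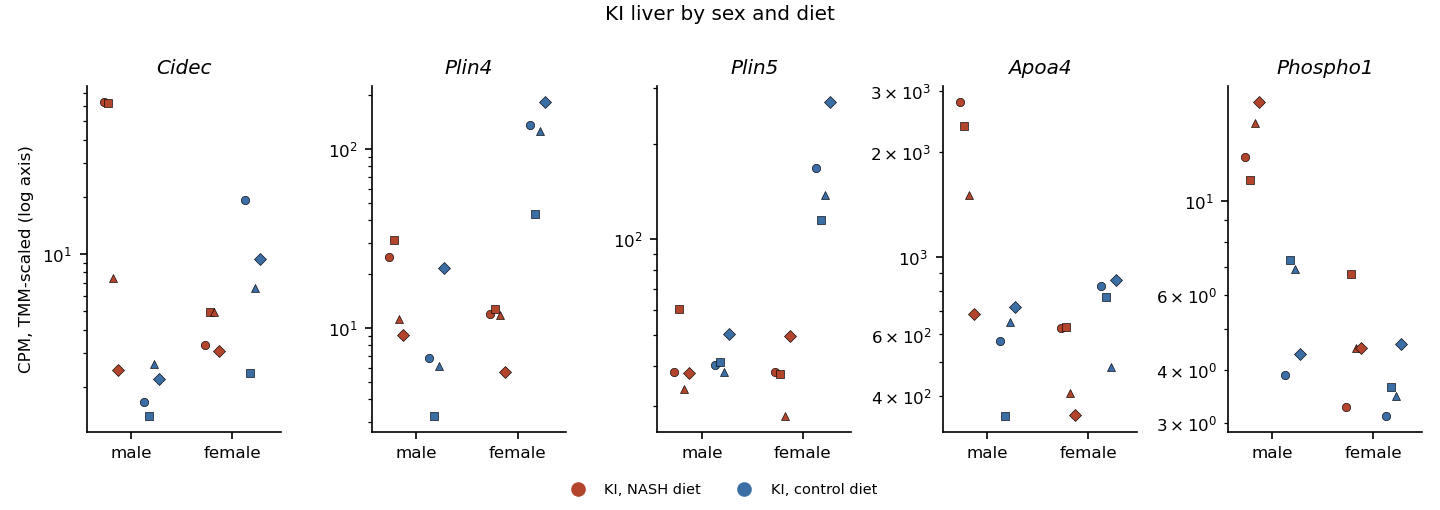
Levels of 5 genes in KI liver of both sexes (CPM on a log axis, one scale per gene; red, NASH diet; blue, control diet; marker shape, library number within its group). Plin4 and Plin5 lie below control in females on NASH diet and overlap it in males, and the 4 Phospho1 values of males on NASH diet (11.2 to 17.1 CPM) exceed every other Phospho1 value shown.

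The first principal component of log2 CPM in the 8 KI libraries held 24.0% of the variance, with scores of 18.2, 30.8, -1.6 and -15.1 on NASH diet and -4.4, -11.8, -12.0 and -4.0 on control diet. NASH libraries 1 and 2 stood apart at one end and NASH library 4 at the other, and the same pair was highest and the same library lowest of the NASH group for Cidec, Cidea and Cntnap1. The second component held 19.5% of the variance, with scores of -14.7, 8.5, -21.1 and -11.8 on NASH diet and 15, 0.8, 4.2 and 19.1 on control diet. On it NASH libraries 1, 3 and 4 were below every control and NASH library 2 was within their range.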

How the data were processed

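RNA from total liver was sequenced from TruSeq Stranded mRNA libraries, per the labels' protocols. The authors deposited raw counts per gene. The build was mm10, per the submitters' processing notes, and the aligner, counter and annotation were not given in the sources used here. Gene tests used edgeR 4.0.16 (quasi-likelihood, TMM, filterByExpr with min.count 10 and min.total.count 15) in R 4.3.3 over 15 male libraries, 1 mean per group, with contrasts for the KI diet effect, the WT diet effect and their difference. Females and the sex difference had fits of their own. Alternatives used DESeq2 1.42.0 and limma 3.58.1. Steps were tested on simulated data. Liver values are TMM-scaled CPM computed here, and macrophage Spp1 values are CPM of the library total without TMM.

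Genes were named from the 12 with the smallest p in each direction in KI males and from the leading members of the lists. Others came from the 8 with the smallest p each way in WT and in the difference. Further genes were chosen after their values were seen. Not every gene that met these rules is given. The lists of acute phase, oncostatin M, immediate early, fasting, sex-biased and pericentral hepatocyte genes were read but are not described. The members and lists were chosen with earlier results of these data known. The labels number the libraries without naming animals, so p-values measure the spread between these libraries, which may be technical. Of genes tested, 99.0% had an exonic length, and the KI effect had a Spearman rho of 0.11 with it across genes.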

Additional observations from a re-analysis of the deposited data

Results flagged for a closer look

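Single KI male libraries lay far from the other 3 of their group for 10 named genes, a pattern that chance gives in about 1 in 20 groups. On NASH diet these were library 1 for Acot2 (5.11 CPM) and Abcc3 (277 CPM), library 2 for Gpx4 (172 CPM, low) and Srxn1 (214 CPM), library 3 for Fitm1 (30.2 CPM, low) and library 4 for Eci2 (232 CPM). On control diet they were library 1 for Slc22a5 (21.0 CPM), library 2 for Scd1 (19200 CPM, low) and Slco2a1 (134 CPM), and library 3 for Hs3st3b1 (143 CPM, low).

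For 153 genes the test of the difference itself separated the diet effect in KI males from that in WT males. Among those named, the KI minus WT difference on the log2 scale was negative for most macrophage and matrix genes. It was -7.95 for Gpnmb, -5.30 for Mmp12, -2.78 for H2-Aa, -2.71 for Col3a1, -2.63 for S100a11, -2.55 for Lgals3 and -1.79 for Anxa5. It was also negative for Arntl (-2.9), Uap1l1 (-2.42), Haus8 (-2.38), Gm19619 (-2.21), Fitm1 (-2.03), Hsd17b13 (-1.18) and Gpx4 (-1.02). It was positive for Fabp5 (4.09), which is also on the lipid-associated macrophage list, and for the sterol genes Stard4 (1.88) and Scap (1.36). The other positive ones were Dlgap1 (3.87), Cadm4 (3.50), Slco2a1 (2.27), Sdc4 (1.28), Ttc39b (1.22), Hs3st3b1 (0.99) and Apom (0.80).

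The diet effect differed between KI males and KI females for 89 genes. The male minus female difference was 5.27 for Cidec, 4.51 for Plin4, 2.20 for Apoa4, 2.17 for Pmvk and 2.16 for Plin5.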

How the results depend on the processing

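For the KI male diet effect, edgeR called 0 genes under TMM, another scaling, other low-count filters and the 8 KI libraries alone, while DESeq2 called 44, DESeq2 on the 8 libraries alone 154 (chosen after seeing the data), a joint fit of male and female liver 8, a replicate block 1 (Tmem86a, adjusted p = 0.025), and fits without 1 library 0 to 1, the single genes being Cidec without KI NASH library 4 and Cd36 (adjusted p = 0.042) without the merged WT control. The deviations of same-numbered KI libraries from their group means correlated at 0.129, -0.143, 0.029 and -0.127, and those of differently numbered ones at -0.127 to 0.136. These values showed no pairing by number, but so few cannot exclude one. The KI minus WT difference had 153 genes, against 719 by DESeq2, 65 by limma-voom, 92 with a replicate block, 245 with WT control libraries 3 and 4 kept separate, and 26 to 559 without 1 library, where 12 of 15 left-out libraries moved it by over 1.5 times. The male minus female difference had 89 genes, against 296 by DESeq2, 38 with a replicate block and 12 to 169 without 1 library. WT males had 1172 to 3395 genes and KI females 509 to 1433 without 1 library. Fold changes near 0 changed sign for Mmp12 (-0.05 by limma-voom, -0.37 to 0.75 without single libraries), Cadm4 (-0.10 to 0.19 without single libraries) and Slco2a1 (0.00 by limma-voom, -0.19 to 0.25 without single libraries). Of 3317 gene values under alternatives, 3108 kept direction and side of the threshold. By limma-voom the Gpnmb difference was no longer called (adjusted p = 0.11). Depth of 18743646 counts and more leaves genes under 1 CPM, such as Mogat1, Cd209a and Vcan, on few reads per library.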
